A study of Mus musculus with 3 samples.

Results

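The genes described here are 10 secreted signals of the BMP and TGF-beta family and their antagonists: Bmp2, Bmp4, Bmp6, Bmp7, Tgfb1, Tgfb2, Tgfb3, Inhba, Nog and Grem1. They were chosen by name out of 21887 protein-coding genes, and each was given the open chromatin windows whose midpoint lay inside the gene or within 10 kb of it. This assigned 11 of the series' 13500 windows to the family. The windows come from ATAC-seq, in which Tn5 transposase cuts accessible DNA, of cells from the apical part of first molars of C57BL/6 mice at postnatal day 7.5. There were 2 control libraries from Arid1a fl/fl mice, which carry the floxed alleles without a Cre, and 1 mutant library from Gli1-CreER;Arid1a fl/fl mice, in which Cre is active only in cells that express Gli1 and after tamoxifen. The tamoxifen injection of 1.5 mg per 10 g body weight at postnatal day 3.5 is given for all samples alike, and each library was made from 5000 cells. The deposited windows have a width of 201 bp and are 1 list over all libraries, with no value per library. Mutant and control were therefore not compared here, the depth is unknown, and replicate errors cannot be given for any value.

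BMPs, TGF-betas and activins are secreted dimers that bind pairs of type I and type II receptor kinases, which phosphorylate Smad proteins that then enter the nucleus. Noggin, from Nog, and gremlin 1, from Grem1, bind BMPs outside the cell and keep them from their receptors. In teeth, BMP signals pass between epithelium and mesenchyme during early development, and TGF-beta and BMP signalling in the mesenchyme is known to be needed for root formation. The motif searched in the windows is that of Plagl1, a zinc finger transcription factor also called Zac1 that restrains the cell cycle. A motif site is a match in sequence and does not measure binding by Plagl1.

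The family's windows held 9 Plagl1 motif sites, which are shown because every later count of sites rests on them. Each is printed 5′ to 3′ on the strand of the motif, with positions 4 to 8 in capitals, the stretch in which the deposited sites vary least. Positions are in mm10, counted from 1.
Bmp4, chr14:46387574-46387583, plus strand: cgtGGGGCac
Bmp7, chr2:172940262-172940271, plus strand: cccGGGGCcc
Bmp7, chr2:172940266-172940275, minus strand: cgaGGGGCcc
Tgfb1, chr7:25687182-25687191, plus strand: tccGAGGCcc
Tgfb1, chr7:25687186-25687195, minus strand: tctGGGGCct
Tgfb1, chr7:25711912-25711921, plus strand: cagGGGGCtc
Tgfb2, chr1:186705570-186705579, plus strand: aaaGAGGGcc
Tgfb3, chr12:86079316-86079325, minus strand: agaGGGGCcg
Inhba, chr13:16012298-16012307, minus strand: tcaGGGGCca
The core GGGGC stood in 7 of the 9 sites, GAGGC in 1 and GAGGG in 1. Over all 5753 deposited sites these cores made up 48.5%, 39.8% and 4.05%. No pair of the 9 sites had the same sequence.

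All ligand genes had a window and neither antagonist gene did. Windows were assigned to 4 of 4 BMP ligands, 3 of 3 TGF-beta ligands and Inhba, and to 0 of 2 antagonists, which makes 8 of 10 genes, where 59.5% of all protein-coding genes had a window by the same rule. Motif sites lay in windows of 6 of the 10 genes, where 25.1% of all protein-coding genes had a site. Among genes with a window, 6 of 8 had a site, against 42.1% of all genes with a window. With so few genes these counts describe the family, and no test was made of them. Of the other genes of the pathway, 12 of 25 ligands and 7 of 14 antagonists and modulators had a window. The split between ligands and antagonists thus holds for these 10 genes only.

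**Figure D1:**
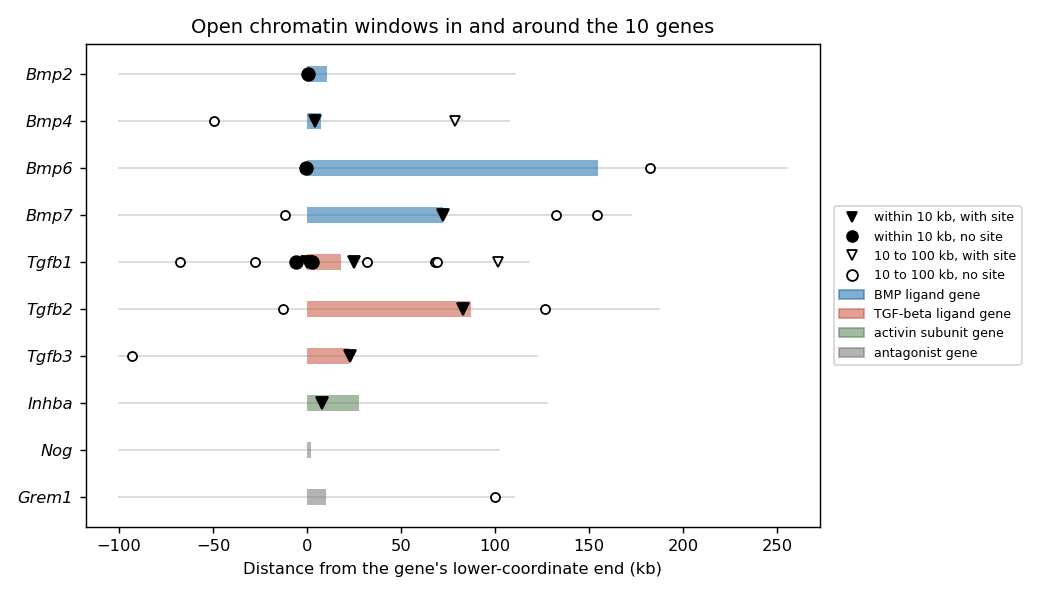
Windows in and around the 10 genes. The x axis is the distance in kb from the end of each gene with the lower coordinate, coloured bars are the genes, filled symbols are windows inside or within 10 kb of the gene, open symbols are windows up to 100 kb away, and triangles hold a motif site. Tgfb1 has 4 filled symbols, partly hidden by each other, the other 7 ligand genes have 1 each, and Nog and Grem1 have none.

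Among the BMP ligands, the windows of Bmp2, Bmp6 and Bmp7 lay at a gene end, and that of Bmp4 lay deeper inside the gene. Bmp2, a ligand that drives bone and odontoblast differentiation, spans chr2:133552159-133562896. Its window at chr2:133552344-133552544 had its midpoint 285 bp inside the lower end and held no motif site. It was the only window within 100 kb of the gene.

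Bmp4, an early mesenchymal signal of the tooth germ, spans chr14:46383525-46390669 on the minus strand. Its window at chr14:46387413-46387613 lay inside the gene, with its midpoint 3156 bp downstream of the RefSeq start and 35 bp from an end of the long noncoding RNA gene Gm15222. Another noncoding gene, Gm15217, lay 3905 bp from the midpoint. The window held 1 site, of score 6.27. The other windows within 100 kb, at 49.7 kb and 71.3 kb, had a GC content of 45.3% each, against 71.6% for the window inside Bmp4.

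Bmp6, a ligand of the Bmp5 to Bmp7 subgroup that also acts in iron balance, is the longest gene of the family at 155 kb (chr13:38345716-38500314, plus strand). Its window at chr13:38345164-38345364 lay outside the gene, 452 bp upstream of the RefSeq start and 1141 bp from the noncoding gene Gm47990, and held no site. No window lay in the body of Bmp6. The next window, 27.8 kb beyond the other end, lay inside the neighbouring gene Txndc5.

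Bmp7, which is needed for kidney and eye development, spans chr2:172868012-172940321. Its window at chr2:172940216-172940416 was centred 5 bp from the upper gene end, the closest of all the family, and 671 bp from the noncoding gene Gm40010. It held 2 sites, of scores 5.52 and 6.82, the lowest and the highest score of the family. A further window lay 11.8 kb beyond the lower end and held no site.

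All 3 TGF-beta ligand genes had a window with a site, and Tgfb1 had the most windows of the family. Tgfb1, the main TGF-beta isoform of bone matrix and immune cells, spans chr7:25687002-25705077 on the plus strand and had 4 windows, a number reached by 1.02% of protein-coding genes. Its region was dense in windows: 10 windows lay within 100 kb and 21 within 500 kb, against medians of 3 and 9 over all protein-coding genes. The window at chr7:25687047-25687247 was centred 145 bp downstream of the RefSeq start and held 2 sites, of scores 5.64 and 6.24. The window at chr7:25689247-25689447 was centred 2345 bp downstream and held none.

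The other windows of Tgfb1 lay outside the gene and close to its neighbours. The window at chr7:25680789-25680989 was 6113 bp from Tgfb1 but 109 bp from an end of B9d2, which encodes a protein of the ciliary transition zone, and 1266 bp from Tmem91. It held no site. The window at chr7:25711904-25712104 was 6927 bp from Tgfb1 but inside Ccdc97, 892 bp from an end of that gene, and 9157 bp from Hnrnpul1, which encodes an RNA-binding protein. It held 1 site, of score 6.12. The window at the start of Tgfb1 was itself 585 bp from B9d2, so it lay within 1 kb of an end of both genes.

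Tgfb2, the isoform needed for heart, palate and inner ear development, spans chr1:186622787-186709697 on the minus strand. Its window at chr1:186705393-186705593 was 4204 bp from the upper end of the gene but 496 bp downstream of the start in the RefSeq promoter table. The noncoding gene Gm35655 lay 1690 bp away. The window held 1 site, of score 6.24. Another window lay 12.7 kb beyond the lower end and held none.

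Tgfb3, the isoform needed for fusion of the palate, spans chr12:86056743-86079041. Its window at chr12:86079179-86079379 lay 238 bp outside the upper end and 3282 bp from Ift43, a gene of intraflagellar transport, and held 1 site, of score 5.65. The only other window within 100 kb was 93.1 kb away.

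Inhba encodes the beta A subunit, which forms activin A and is a part of inhibin A, and spans chr13:16004256-16031609 on the plus strand. Its window at chr13:16012146-16012346 lay inside the gene, 7990 bp from the lower end but 395 bp downstream of the RefSeq start, and it also lay inside the transcribed pseudogene B230303A05Rik. It held 1 site, of score 6.07. This was the only window within 500 kb of Inhba, where the median over all protein-coding genes was 9.

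The antagonists had no window close by. Nog spans chr11:89300638-89302559, a gene of 1.92 kb, and its nearest window lay 199976 bp away, with Gm525 as the nearest protein-coding gene. By comparison, 14.9% of protein-coding genes had a nearest window farther away than that of Nog. Grem1 spans chr2:113748675-113758648 on the minus strand, and its nearest window, at 90113 bp, lay 100 bp from Arhgap11a. A nearest window farther off than that of Grem1 was found for 22.4% of protein-coding genes. The windows nearest to Nog and Grem1 held no site. The list is a union of peaks, but no source used here tells how its regions were chosen. The lack of a window therefore does not show closed chromatin at Nog or Grem1. Fewer cells with an open region and less opening per cell cannot be told apart.

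Whether the family's windows count as lying at gene ends depended on the ends used. By the ends of the RefSeq gene, 5 of 10 members had a window within 1 kb (Bmp2, Bmp6, Bmp7, Tgfb1 and Tgfb3), against 46.6% of protein-coding genes. When the starts of the RefSeq promoter table also counted, a choice made after seeing the data, Tgfb2 and Inhba joined and the number was 7. No share over all protein-coding genes is given here for ends and starts together, so the 7 cannot be set against one. Of the 17492 protein-coding genes with an entry in that table, 50.7% had a window within 1 kb of a start. Among the 6 members with an entry, Bmp6, Tgfb1, Tgfb2 and Inhba had such a window, and Bmp4 and Grem1 did not. On the other side of the 10 kb limit, the nearest windows left out were those of Bmp7 at 11775 bp, Tgfb2 at 12683 bp and Tgfb1 at 14007 bp, and the farthest kept was that of Tgfb1 at 6927 bp.

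**Figure D2:**
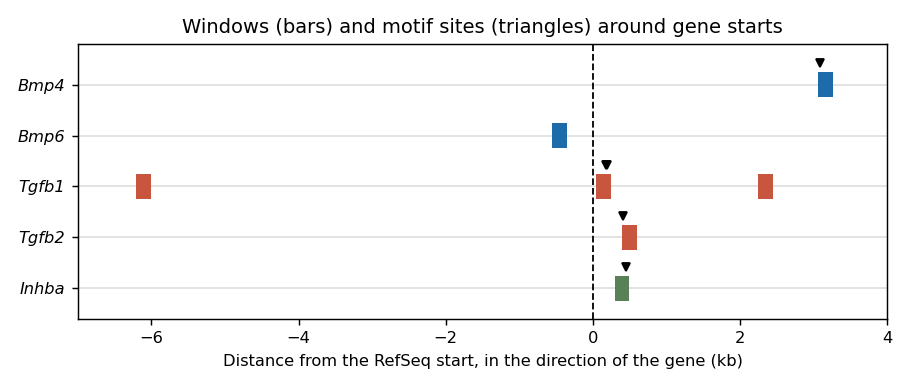
Windows of the 5 members with a start and strand in the RefSeq promoter table and a window within 7 kb of that start. The x axis is the distance in kb from the start in the direction of the gene, bars are windows at their true width and triangles are motif sites. The windows of Tgfb1, Tgfb2 and Inhba just past the start each hold a site, that of Bmp6 lies before the start and holds none, and the window of Tgfb1 at 25002 bp is off the axis.

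Among the members with an entry in the promoter table, the sites nearest to a start were those of Tgfb1, Tgfb2 and Inhba, all downstream of it. Their centres were 184 and 188 bp downstream in Tgfb1, 415 bp in Tgfb2 and 451 bp in Inhba. The site in Bmp4 lay 3091 bp downstream. The tables used here give no exons, so whether these sites are in exons, introns or untranslated regions is not stated.

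In base composition the family's windows spanned much of the range of the series. Their GC content ran from 53.2% to 76.1% with a median of 68.2%, against a median of 66.7% over all windows (quartiles 59.2% and 72.6%), and 7 of 11 were above that median. CpG dinucleotides per 100 steps between neighbouring bases had a median of 8.5 in the family and 9 over all windows (quartiles 5.5 and 12), and 5 of 11 were above it. Sequence dense in CpG is typical of CpG islands, which mark many mammalian promoters.

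The windows of 5 genes were above the median in CpG. Bmp6 had 12.5 CpG per 100 steps, Bmp2 had 12, Tgfb2 had 11, Bmp4 had 10.5 and the window at the start of Tgfb1 had 9.5, while Bmp7 had 8.5. Relative to the number that their G and C bases would give by chance pairing, with G and C taken as equally frequent, the ratio was 1.06 in Bmp6, 1.03 in Bmp2, 0.819 in Tgfb2, 0.814 in Bmp4, 0.718 in Bmp7 and 0.653 in the window at the start of Tgfb1, against a median of 0.802 over all windows. The windows of Bmp2 and Bmp6, which held no site, thus had the highest ratios of the family. The windows of Tgfb1 without a site had ratios of 0.772 and 0.739, below the median over all windows.

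Tgfb3 and Inhba had the windows lowest in GC. Both held 107 G or C bases of 201, which is 53.2%, and 12% of all windows had less. Their CpG values were 3 and 4.5 per 100 steps, and 12.4% and 19.4% of all windows had less. The 4 windows of Tgfb1 ran from 1.5 to 9.5 CpG per 100 steps, where the single windows of the BMP ligands ran from 8.5 to 12.5. The window at its start had the highest GC content of the family, 76.1%, with 9.5 CpG per 100 steps. The window inside Ccdc97 had a GC content of 62.2% with 1.5 CpG per 100 steps and a ratio of 0.154, the lowest of the family.

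**Figure D3:**
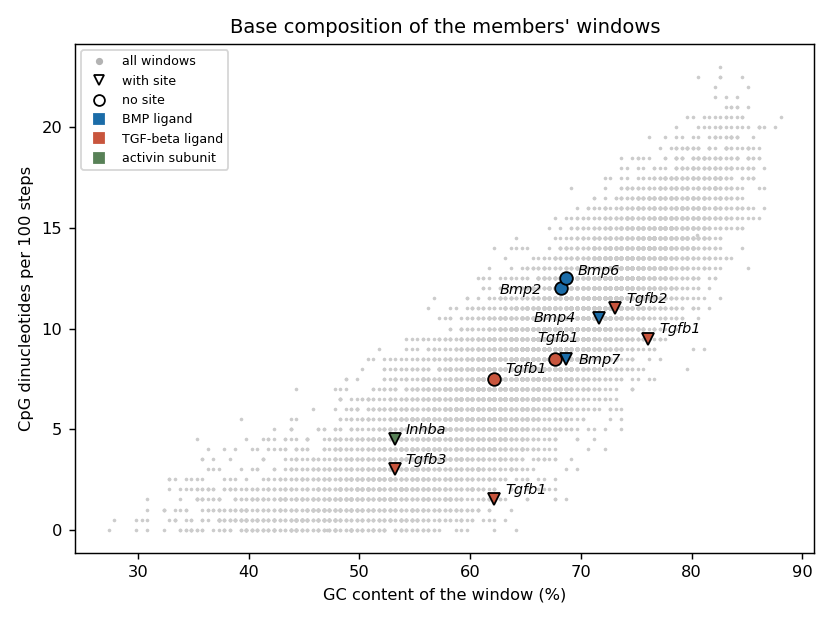
Base composition of windows. The x axis is GC content in percent, the y axis is CpG dinucleotides per 100 steps, grey points are all 13500 windows, and coloured symbols are the 11 windows of the family (triangles with a motif site, circles without). Bmp2 and Bmp6 sit highest, at 12 and 12.5 CpG per 100 steps, and the Tgfb1 window inside Ccdc97 sits lowest at 1.5.

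Motif sites were held by 7 of the 11 windows (63.6%, exact Clopper-Pearson 95% interval 30.8 to 89.1, which covers counting error only), where 32.9% of all windows held a site. The interval takes the windows as independent draws, although 4 of them belong to Tgfb1 and the genes were chosen by name. It includes the 32.9% of all windows. With windows up to 50 kb from the genes the share was 36.8% of 19. Windows in the same band of GC content as those of the family held a site in 28.2% (50 to 55% GC), 33.5% (60 to 65%), 34.9% (65 to 70%), 34.9% (70 to 75%) and 36.4% (75 to 80%) of cases.

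Scores are log-odds of the match to the motif, and the family's ran from 5.52 to 6.82 with a median of 6.12, against 5.94 over all sites (quartiles 5.71 and 6.25). At or above the median of the series stood 6 of the 9 sites. The minus-strand site of Bmp7 scored 6.82, and 93.8% of all sites scored lower. That of Bmp4 at 6.27 stood above 76.3% of sites. The sites of Tgfb2 and the minus-strand site of Tgfb1, both at 6.24, stood above 72.9% and 73.0%. The plus-strand site of Bmp7 scored 5.52, above 0.713% of sites, and its sequence occurred 117 times in the series. By contrast the sequence of the Tgfb2 site occurred 4 times and that of the Inhba site 5 times.

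**Figure D4:**
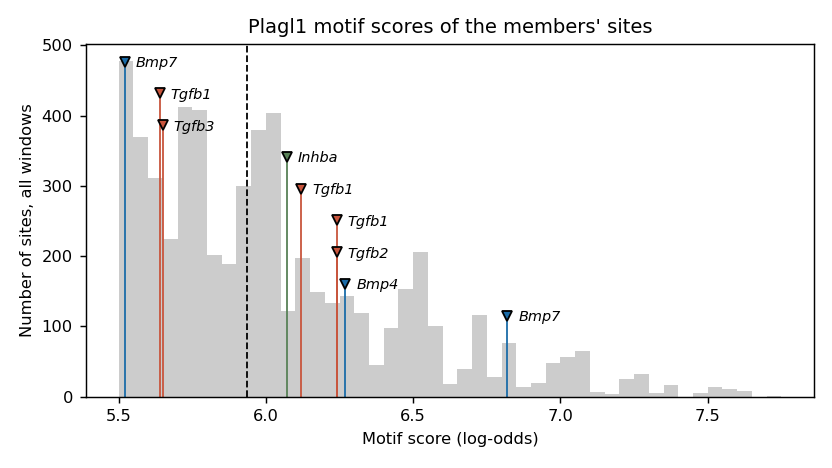
Scores of the 9 sites of the family among all sites. The x axis is the motif score, grey bars are the number of sites of the whole series, the dashed line is the median of 5.94, and labelled triangles mark the family's sites at arbitrary heights. The Bmp7 sites lie at both extremes of the family, 5.52 and 6.82.

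Both windows with 2 sites, those at the ends of Bmp7 and Tgfb1, had the same arrangement. A plus-strand and a minus-strand site overlapped by 6 bases, the second starting 4 bases after the first. The joined sequences of the plus strand are printed with the shared bases in capitals, to show the overlap.
Bmp7, chr2:172940262-172940275: cccgGGGCCCctcg
Tgfb1, chr7:25687182-25687195: tccgAGGCCCcaga
In the whole series 1055 windows (7.81%) held 2 or more sites, and 175 of these (16.6%) held a pair in this arrangement, which made up 176 of 361 overlapping pairs of any kind. Since the shared bases count for both sites, the sites of such a pair are not independent. Counted once per stretch of bases, the family had 7 sites.

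The RefSeq promoters of the family, 250 bases before to 50 after the start (GRCm38.p6, the assembly of mm10), were searched for the 642 distinct sequences of the deposited sites on both strands. An entry was found for 6 of the 10 members, and only Bmp4 held a match, where 40.1% of 21263 promoters of protein-coding genes held one. The match of Bmp4, with the motif sequence cacGGGGCct and a score of 6.00, began at position -65 from the start, on the opposite strand, and lies outside the deposited windows. It is shown in capitals in the 250 bases before the start (chr14:46390670-46390919, minus strand).
Bmp4 promoter: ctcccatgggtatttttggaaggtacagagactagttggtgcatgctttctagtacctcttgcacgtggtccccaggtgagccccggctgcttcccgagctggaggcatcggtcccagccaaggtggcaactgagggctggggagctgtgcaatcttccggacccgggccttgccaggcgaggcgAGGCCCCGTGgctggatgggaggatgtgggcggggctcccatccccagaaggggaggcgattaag
A match says only that these letters stand there, and promoters without a match say nothing about Plagl1 at these genes.

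The promoters of Tgfb1 and Grem1 were both rich in GC. The first has a window next to it and the second has none within 90 kb. The Tgfb1 promoter had a GC content of 77.0% with 30 CpG dinucleotides, and 96.8% of promoters had less GC. The Grem1 promoter had 70.7% with 28 CpG, and 88.7% of promoters had less GC. Medians over the promoters were 56.3% and 13. The GC box GGGCGG, bound by Sp1 family factors and searched on both strands, stood 6 times in the Tgfb1 promoter, 3 times in that of Grem1, and 1 time each in those of Bmp4 and Bmp6. It stood in 46.2% of promoters. The 250 bases before each start are shown with GC boxes in capitals (chr7:25686752-25687001, plus strand, and chr2:113758649-113758898, minus strand). The sixth box of Tgfb1 lies after the start.
Tgfb1 promoter: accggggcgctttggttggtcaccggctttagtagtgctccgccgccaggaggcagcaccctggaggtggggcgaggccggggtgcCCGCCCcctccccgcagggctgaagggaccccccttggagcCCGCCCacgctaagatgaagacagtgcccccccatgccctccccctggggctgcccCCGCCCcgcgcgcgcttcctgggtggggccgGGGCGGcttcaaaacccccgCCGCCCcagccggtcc
Grem1 promoter: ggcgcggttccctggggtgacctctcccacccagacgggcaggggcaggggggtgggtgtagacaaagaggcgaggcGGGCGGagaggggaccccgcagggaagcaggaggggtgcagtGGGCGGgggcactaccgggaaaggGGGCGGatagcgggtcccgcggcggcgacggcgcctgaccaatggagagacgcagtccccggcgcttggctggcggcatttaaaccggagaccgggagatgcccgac

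Tgfb2 and Inhba had promoters lower in GC, at 54.3% with 10 CpG and 47.7% with 7 CpG. The promoter of Bmp6 had 69.3% with 27 CpG and that of Bmp4 64.0% with 12 CpG. Tgfb2 and Inhba both had a window within 500 bp downstream of the start, of 73.1% and 53.2% GC. Whether promoter GC bears on having a window was not tested. Neither the Tgfb2 nor the Inhba promoter held a GC box, but each held the TATA sequence TATAAA. It begins at position -31 from the start in Tgfb2 and at -91 in Inhba. This sequence, searched on both strands, stood in 12.6% of promoters. It is in capitals in the bases before the Tgfb2 start (chr1:186705990-186706239, minus strand).
Tgfb2 promoter: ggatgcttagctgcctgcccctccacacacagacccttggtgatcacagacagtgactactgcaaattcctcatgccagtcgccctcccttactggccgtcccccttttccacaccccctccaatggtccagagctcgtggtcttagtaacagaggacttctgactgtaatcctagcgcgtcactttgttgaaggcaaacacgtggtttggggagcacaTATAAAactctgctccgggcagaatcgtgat

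The other genes of the pathway were counted by role. In all 55 of 80 had a window, and 23 had a motif site, where 59.5% and 25.1% of all protein-coding genes did. Of other ligands 12 of 25 had a window and 7 a site, and by the naming rule these include Amh and Lefty1, with 2 windows each and no site, Bmp8a with 1 window, and Gdf1 with 1 window and 1 site. Of other antagonists and modulators 7 of 14 had a window and 3 a site: Dand5, a Nodal antagonist, had 3 windows with 2 sites, Fstl1 had 2 with 3 sites, and the BMP-binding proteins Bmper and Chrd had 1 each with no site.

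Of the latency and processing genes 8 of 10 had a window and 2 a site. The shares of all protein-coding genes, 59.5% and 25.1%, stand beside these and the following counts too. Ltbp1 and Ltbp4, which encode binding proteins that hold TGF-beta in the matrix, had 3 and 2 windows, and the proteases Bmp1 and Furin had 1 each, all without a site. Receptors had a window in 12 of 14 cases and a site in 4, with 2 windows each for Acvr1, Acvr2b, Tgfbr2 and Tgfbr3, of which only Acvr2b held a site. Smads had a window in 8 of 8 cases and a site in 4. Smad3, which transmits TGF-beta signals, had 4 windows with 5 sites, Smad9 had 2 with 2 sites, and Smad7, an inhibitor, and Smad1 had 2 and 1 without a site. Direct targets had a window in 8 of 9 cases and a site in 3, with 4 windows and 1 site in Id3, 2 windows and 1 site each in Bambi and Id2, and 2 windows and no site in Id1. Median gene length also differed between the roles. It was 6.67 kb for other ligands, 13.9 kb for other antagonists and modulators and 40.4 kb for latency and processing genes. For receptors it was 88.5 kb and for Smads 65 kb, against 20.2 kb for the 10 members and 17.2 kb for all protein-coding genes. Direct targets had the shortest median, 4.91 kb, with a window in 8 of 9 cases. The part of length in these counts was not tested.

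**Figure D5:**
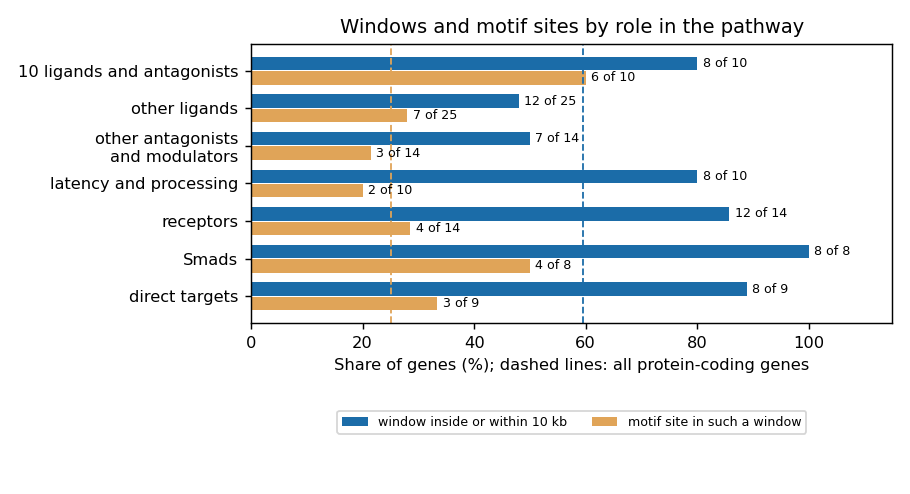
Share of genes with a window inside or within 10 kb (blue) and with a motif site in such a window (orange), by role in the pathway, with counts beside the bars. Dashed lines are the shares of all protein-coding genes, 59.5% and 25.1%. The 10 ligands and antagonists stand at 8 and 6 of 10, and the Smads at 8 and 4 of 8.

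The windows were checked against markers of the labelled tissue. Markers of dental mesenchyme and odontoblasts had a window in 10 of 12 cases, with none at Dspp and Dmp1, genes of dentine matrix. Markers of other cells also had windows, with 3 of 10 for dental epithelium, 3 of 8 for immune cells and 3 of 7 for endothelium. By the same rule 59.5% of all protein-coding genes had a window. No test was made of these counts. The pooled windows do not show which of these cells a window of the family comes from.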

How the data were processed

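The series holds 3 ATAC-seq libraries. The submitters' processing notes name mm10 and, among other tools, MACS2 2.1.1 for peaks and Bowtie2 2.3.5 for alignment. A union list of peaks was then searched with HOMER for 1 motif, within 100 bp of the centre of each region, per the file headers. The deposited GC value is a fraction of the bases of a window and the deposited CpG value a ratio of CpG dinucleotides to steps between bases, per the file headers. Both are given here per 100. The deposited site score is a log-odds score whose log base is not stated. Depth per library was not used here. All 5753 sites were matched to the site list by coordinates. In 1543 windows that lie inside a RefSeq promoter sequence, the GC count equalled that of the sequence in 1543, and 577 of 577 sites had the same letters.

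Genes and promoters came from RefSeq tables of GRCm38.p6. Windows were assigned by midpoint, and a window could go to several genes. Assignment was tested on 200 simulated windows. The members, gene lists and rules were chosen with earlier results of these data known. Named genes were the 10 members, up to 4 genes per role of the pathway list (most windows first, then alphabetical), every gene within 10 kb of a member's window, and the gene nearest to the closest window of members without one. Alternatives changed the distance, the treatment of shared windows, the counting of sites, the gene ends and the inclusion of Tgfb1. The analysis used Python 3.11.15, numpy 2.4.6, pandas 2.3.3, scipy 1.17.1 and matplotlib 3.10.9.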

Additional observations from a re-analysis of the deposited data

How the results depend on the processing

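Of 63 values recomputed under 11 alternatives, 61 stayed within 1.5 times the reported count, within the reported interval or within 1 SD over the family's windows or sites. Both values that moved were the number of windows assigned to the family, 11 as reported: it was 19 with windows up to 50 kb from the gene, and 7 without Tgfb1, an alternative chosen after seeing the data. The number of members with a window was 8 at 1, 3, 10 and 50 kb, while the share of all protein-coding genes with a window was 53.5%, 55.1%, 59.5% and 71.9%. With 10 members in all, this number could not rise past the limit of 1.5 times, so a larger distance could not move it. The same holds for the 80 other genes of the pathway, of which 55 had a window as reported and 68 at 50 kb. The share of the family's windows with a site, 63.6% as reported, lay within its wide interval throughout and was 71.4% without Tgfb1. It fell to 36.8% at 50 kb, near the 32.9% of all windows, which the interval also includes. No paired analysis was possible because the tables hold no value per library. The absence of depth and replicate values limits every statement to the list of windows as deposited.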
